A study of Mus musculus with 6 samples.

Results

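Replication-independent histone variants were followed in whole mouse testes at postnatal day 4 through the 10 genes H2afz, H2afv, H2afx, H2afy, H2afy2, H2afj, H3f3a, H3f3b, H1f0 and H1fx. They were taken by symbol from the gene table, in which each of the 10 had 1 row among 54232 genes, and all 10 passed the filter on low counts. RNA was sequenced from 3 samples labelled Dis3l2 cKO and 3 labelled Dis3l2 WT, all on a B6D2F1 background, and the series set out to list the genes that differ between knockout and control testes. Dis3l2 encodes an exoribonuclease that degrades RNAs with an oligouridine tail. The labels name neither the Cre driver nor the deleted exons, and they do not say how many animals gave a sample, and tests between groups rest on sample-to-sample spread that could in part be technical.

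Most histone mRNA is made only while DNA is replicated, from gene clusters whose transcripts end in a stem-loop in place of a poly(A) tail. Variant histones are encoded outside those clusters, mostly by polyadenylated mRNAs, and are made through the whole cell cycle, so that they can replace the canonical proteins at promoters, at DNA breaks or on silent chromatin. In mouse testis H2AX is needed for silencing of the sex chromosomes at meiosis, and H3.3 is needed for male fertility. At this age the cords hold Sertoli cells and spermatogonia, and meiosis has not begun.

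The H2A variant gene H2afx is known for mRNAs that can end either way. The 16 letters of the histone stem-loop, searched as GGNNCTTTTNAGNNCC on the sense strand of the GENCODE M21 transcripts, were present in H2afx and in 0 of the other 9 members. They were found in 65.7% of the 67 clustered protein-coding histone genes (44 genes) and in 0.161% of all 55450 genes with a transcript (89 genes). In H2afx (chr9:44334694-44336077, GRCm38, plus strand, 1 exon) the match lies in the 3′ UTR, 46 bases after the stop codon, and is shown in capitals below with 7 bases on each side. The end of the coding sequence is shown as well, because its last 4 codons before the stop codon, in capitals, hold the serine that is phosphorylated at DNA breaks.
H2afx stem-loop: ccacaaaGGCCCTTTTAAGGGCCaccacct
H2afx coding bases 373 to 432: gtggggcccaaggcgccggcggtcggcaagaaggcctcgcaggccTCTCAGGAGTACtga

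Pairs of members encode the same or nearly the same protein, and the sequences below show how far their reads can be told apart. H3f3a (chr1:180800832-180813943, minus strand) and H3f3b (chr11:116021912-116027962, minus strand) both encode H3.3, yet their coding sequences of 411 bases differ at 95 positions, 81 of them at the third base of a codon. The longest stretch without a difference is 23 bases. The first 150 coding bases are given with the differing bases in capitals, 32 in each gene.
H3f3a: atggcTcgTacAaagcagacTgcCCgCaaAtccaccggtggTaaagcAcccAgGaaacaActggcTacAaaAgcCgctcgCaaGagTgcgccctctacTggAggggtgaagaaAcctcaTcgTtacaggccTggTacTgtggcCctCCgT
H3f3b: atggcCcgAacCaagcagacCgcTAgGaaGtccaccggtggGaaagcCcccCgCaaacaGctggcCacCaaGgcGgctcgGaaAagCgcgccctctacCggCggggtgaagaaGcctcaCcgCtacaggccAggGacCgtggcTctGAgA

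H2afz (chr3:137864487-137866922, plus strand) and H2afv (chr11:6427229-6444443, minus strand) encode the H2A.Z proteins. Their coding sequences of 387 bases differ at 81 positions, and the first 150 bases hold 34 of them, in capitals.
H2afz: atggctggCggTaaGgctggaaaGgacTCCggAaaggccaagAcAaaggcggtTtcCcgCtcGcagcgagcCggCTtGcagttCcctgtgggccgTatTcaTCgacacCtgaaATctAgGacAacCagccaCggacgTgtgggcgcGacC
H2afv: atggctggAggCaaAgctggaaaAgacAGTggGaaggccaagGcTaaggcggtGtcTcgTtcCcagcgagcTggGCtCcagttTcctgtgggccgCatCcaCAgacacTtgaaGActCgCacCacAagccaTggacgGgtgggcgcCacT

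The members differ from each other in these stretches, but some have copies elsewhere in the annotation. Of all 100-base windows of the H2afz transcript, 58.8% also occurred in transcript models of genes at other loci, with the most in Tmcc1. The share was 7.73% for H3f3a, with the most in H3f3c, 2.44% for H3f3b and 1.40% for H2afx. It was 0% for H2afv, H2afy, H2afy2, H2afj, H1f0 and H1fx. With windows of 50 bases the shares were 69.6% for H2afz, 16.4% for H3f3a, 8.40% for H3f3b, 6.14% for H2afx, 6.68% for H2afy2 and 2.24% for H2afj. Reads that map to more than 1 place were not counted, so the level of H2afz, and to a lesser degree that of H3f3a, may cover only part of their transcripts. How many reads were lost in this way was not measured. The read length is not given in the sources used here.

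Libraries held 26126694 to 35390560 counts in cKO and 35750784 to 43265614 in WT. Dis3l2 itself, counted over the whole gene, ran from 30.6 to 33.6 CPM (counts scaled to library size, with TMM factors) in cKO and from 31.0 to 32.8 CPM in WT (edgeR adjusted p = 0.956), which does not check the genotype labels, since exons outside a deletion and cells without one are counted too. Germ cell markers were lower in cKO, with 7 of 8 past the test and a summed level of 578 to 609 CPM in cKO against 1059 to 1127 CPM in WT. Sertoli cell markers, of which 1 of 8 was called higher and 1 lower, summed to 3673 to 4350 CPM in cKO and 3514 to 3626 CPM in WT, Leydig cell markers (3 of 5 called higher) to 436 to 469 CPM in cKO and 383 to 391 CPM in WT, and leukocyte markers (4 of 5 called higher) to 77.4 to 83.1 CPM in cKO and 58.5 to 60.5 CPM in WT. Those of dividing cells (3 of 6 called lower) summed to 2555 to 2647 CPM in cKO and 2682 to 2771 CPM in WT, and those of red blood cells (0 of 3 tested called) to 17.6 to 25.4 CPM in cKO and 14.1 to 32.3 CPM in WT. No marker was at 0 in all libraries. Replicate 1 of cKO stood apart: it had the lowest total, yet 36184 genes with a count, against 29741 and 29846 in the other cKO libraries and 32855 to 33898 in WT. Results on the variants are therefore given with and without it.

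Levels of the 10 genes spanned more than an order of magnitude. Per kilobase of exon, with the exon lengths of the deposited table, the order of the genes was the same in both groups, and H3f3b was first with 363.9 ± 10.4 CPM per kb in cKO and 328.1 ± 19.9 in WT (SD, n = 3 each). H1f0 followed with 252.7 ± 12.1 in cKO and 249.6 ± 16.1 CPM per kb in WT, and then H2afx with 170.3 ± 32.8 in cKO and 156.2 ± 22.3 CPM per kb in WT. In WT, these 3 genes lay at or above 99.7%, 99.5% and 99.1% of the 20153 genes kept. H2afv had 69.7 ± 5.2 CPM per kb in cKO and 71.3 ± 4.9 in WT, H2afz 50.1 ± 8.2 in cKO and 49.8 ± 1.4 in WT, and H2afy2 40.2 ± 2.2 in cKO and 43.2 ± 2.3 in WT. The lowest were H1fx with 24.0 ± 3.9 CPM per kb in cKO and 25.0 ± 1.0 in WT, H2afj with 23.3 ± 1.4 in cKO and 19.3 ± 1.7 in WT, H3f3a with 15.5 ± 2.9 in cKO and 16.8 ± 1.8 in WT, and H2afy with a range of 14.8 to 15.8 in cKO and 14.5 to 15.6 in WT.

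Neighbours in this order overlapped between libraries in cKO for H2afz and H2afy2, for H1fx and H2afj, and for H3f3a and H2afy. In WT they overlapped only for H2afj and H3f3a, where the highest H3f3a library had 18.9 CPM per kb and the lowest H2afj library 17.7. The place of some genes depends on the length used. The exon length of H2afy in the deposited table is 6809 bases, while its longest principal transcript has 2046, and per kilobase of the principal transcript H2afy had 51.1 CPM per kb in cKO and 49.9 in WT, above H2afy2. H2afz had 83.2 CPM per kb in cKO and 82.7 in WT on the same measure, above H2afv. H3f3a and H2afj changed places between the groups on that measure, with 19.2 for H3f3a and 23.3 CPM per kb for H2afj in cKO, and 20.7 for H3f3a and 19.3 CPM per kb for H2afj in WT. With either length the level of H2afz may be a low estimate, and its place in the order is uncertain. Of its 100-base windows 58.8% also occurred at other loci, and reads that map to more than 1 place were not counted.

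**Figure D1:**
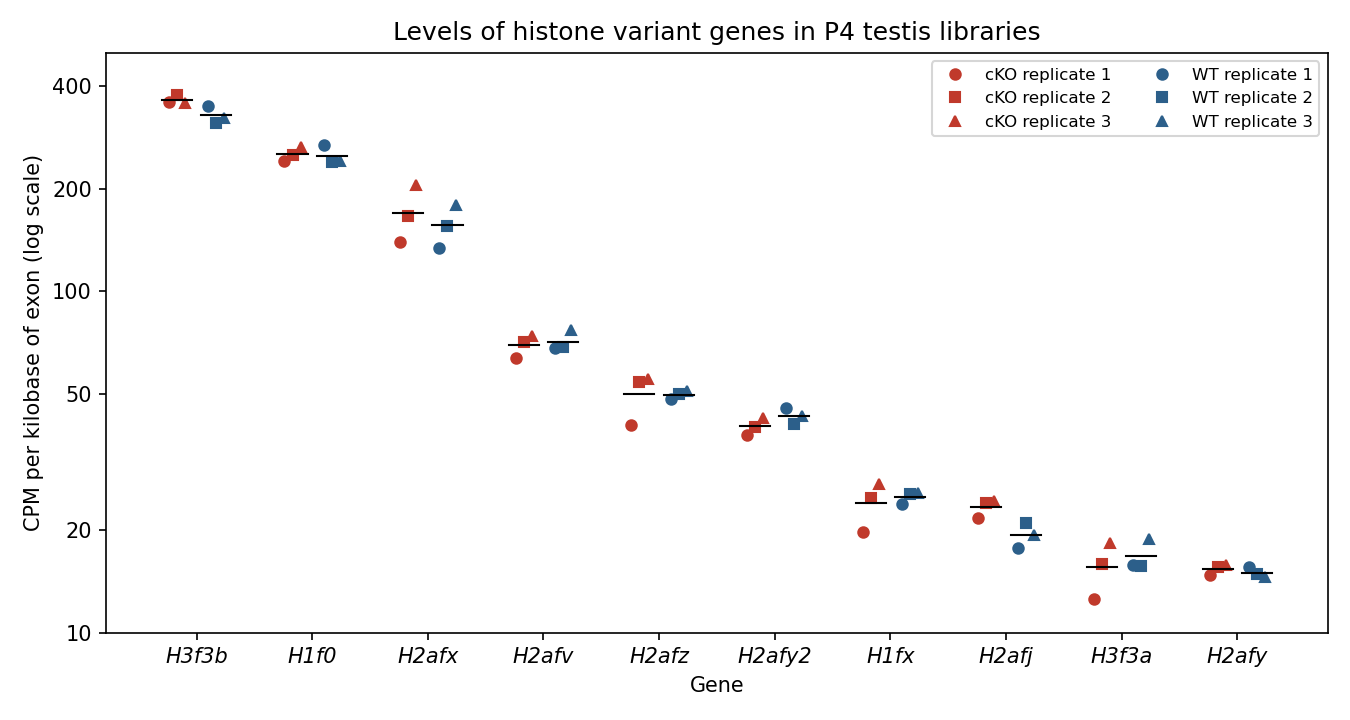
CPM per kilobase of exon (log axis) of the 10 histone variant genes, with 1 point per library, cKO in red and WT in blue, and black lines for the means of 3 libraries. H3f3b, H1f0 and H2afx stand above the other 7, and replicate 1 of cKO is the lowest cKO point in 9 of 10 genes. The points of H2afz may be low estimates, since reads that map to more than 1 place were not counted.

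None of the 10 variant genes passed the test between cKO and WT. The edgeR quasi-likelihood test called 0 of 10 at an adjusted p under 0.05, while 8.34% of all genes kept were called. At an unadjusted p under 0.05 there were 2 of 10, against 23.3% of all genes, and the libraries of the groups did not overlap for 2 of 10, against 28.2% of all genes. DESeq2 called 1 of 10 (12.5% of the genes it tested) and limma-voom 1 of 10 (8.93%). The median log2 fold change of the members, cKO over WT, was 0.01, and the median of all genes was 0.0096. The 95% intervals of all 10 lay between -0.36 and 0.45 on the log2 scale. In whole testes, fewer cells of a type and less RNA per cell cannot be told apart, and the markers above show that germ cell RNA made up less of the cKO libraries; the part of this in the values below was not tested.

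**Figure D2:**
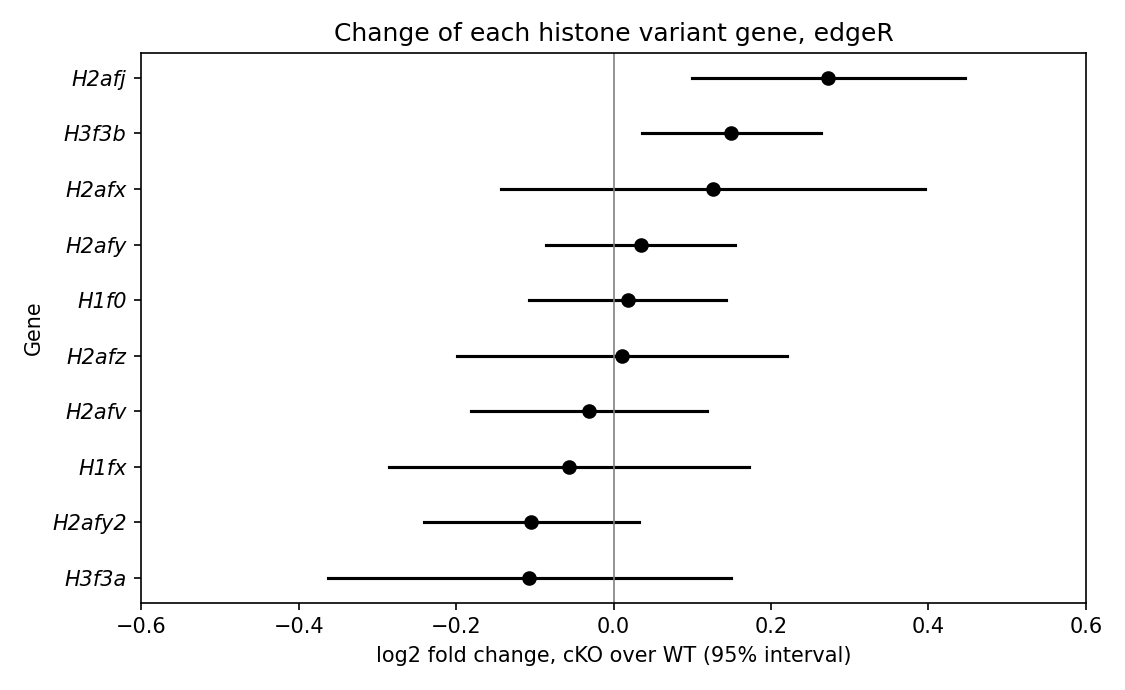
Log2 fold change of each variant gene, cKO over WT (point), with its 95% interval from the edgeR fit (bar). H2afj and H3f3b are the 2 genes whose interval does not include 0, and no gene was past the threshold after adjustment over all genes.

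H2afj, which encodes an H2A variant that in human cells accumulates in senescence, had the lowest p of the members. It lies on chr6:136808244-136810074 (plus strand, 1 exon). Its levels were 39.8, 43.9 and 44.5 CPM in cKO and 32.4, 38.4 and 35.3 CPM in WT. Every cKO library was above every WT library, and the closest pair was 39.8 CPM in cKO and 38.4 CPM in WT. The log2 fold change was 0.27 (SE 0.08, 95% interval 0.10 to 0.45, edgeR adjusted p = 0.0563). It was past the threshold in DESeq2 (adjusted p = 0.0258), limma-voom (0.0480), the robust edgeR fit (0.0457), without a filter on low counts (0.0446), with a stricter filter (0.0418) and without cKO replicate 1 (0.0052). With other single libraries left out the adjusted p ran from 0.0793 without WT replicate 2 to 0.225 without WT replicate 1. H2afj also did not pass in edgeR with all 6 libraries under 2 other scalings. The edgeR adjusted p was 0.0580 with DESeq2 size factors and 0.0604 with library size alone. The 3 non-member genes with the most similar log2 CPM over the 6 libraries were Tor1aip1 (Pearson r = 0.991), Fcrls (0.988) and Dcaf11 (0.987). They were the first of 13591 genes searched, of which 415 had an r over 0.9.

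H3f3b carried most of the H3.3 message. Its levels were 1066, 1119 and 1064 CPM in cKO and 1041, 925 and 963 CPM in WT. All cKO libraries were above all WT libraries. The log2 fold change was 0.15 (SE 0.05, 95% interval 0.04 to 0.26, edgeR adjusted p = 0.105), and without cKO replicate 1 it was 0.16 with an adjusted p of 0.0260. H3f3a, the other H3.3 gene, had 43.8, 55.5 and 63.9 CPM in cKO and 55.5, 54.8 and 66.1 CPM in WT. Its groups overlapped, with replicate 1 of cKO below every other library. The log2 fold change of H3f3a was -0.11 (SE 0.12, 95% interval -0.36 to 0.15, edgeR adjusted p = 0.648), and it was 0.02 without cKO replicate 1.

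Per kilobase, H3f3b counts exceeded those of H3f3a 23.7-fold in cKO and 19.6-fold in WT, as geometric means of 3 libraries. The log2 ratio of H3f3a to H3f3b was -4.84, -4.57 and -4.29 in cKO and -4.47, -4.31 and -4.10 in WT. These ranges overlap, and the difference of means, cKO minus WT, was -0.27. With single libraries left out it ran from -0.41 without cKO replicate 3 to -0.14 without cKO replicate 1. Both genes together reached 1110 to 1174 CPM in cKO and 980 to 1097 CPM in WT, of which H3f3a gave 4.78 ± 0.86% in cKO and 5.69 ± 0.69% in WT (SD, n = 3 each). Since reads shared by H3f3a and its copies were not counted, the share of H3f3a is a low estimate.

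H2A.Z, the variant placed at the first nucleosomes of active and poised promoters, showed no difference past its spread. H2afz had 72.2, 96.1 and 98.5 CPM in cKO and 85.9, 88.6 and 90.7 CPM in WT. The cKO libraries lay on both sides of the WT range, and the log2 fold change was 0.01 (SE 0.10, 95% interval -0.20 to 0.22, edgeR adjusted p = 0.963). Without cKO replicate 1 it was 0.14 (edgeR adjusted p = 0.0919). H2afv had 104.4, 116.3 and 120.8 CPM in cKO and 111.5, 112.0 and 125.7 CPM in WT, again with overlapping groups. Its log2 fold change was -0.03 (SE 0.07, 95% interval -0.18 to 0.12, edgeR adjusted p = 0.844), and 0.02 without cKO replicate 1. The log2 ratio of H2afz to H2afv per kilobase averaged -0.49 ± 0.14 in cKO and -0.52 ± 0.07 in WT (SD, n = 3 each). The difference of means, cKO minus WT, was 0.03 and had no stable sign, since it was 0.11 without cKO replicate 1 and -0.02 without cKO replicate 2. Reads that map to more than 1 place were not counted, and 58.8% of the 100-base windows of H2afz occurred at other loci, against 0% for H2afv. The level of H2afz may therefore be a low estimate, and the ratio does not show which gene has more message.

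H2afx, the gene of the variant that marks DNA breaks, had the largest relative spread among replicates of the 10 members. Its levels were 193.4, 229.9 and 283.6 CPM in cKO and 186.1, 214.6 and 247.7 CPM in WT. The coefficient of variation was 19.2% in cKO and 14.3% in WT, and the average of both was larger than that of 66.6% of all genes kept. The log2 fold change was 0.13 (SE 0.12, 95% interval -0.14 to 0.40, edgeR adjusted p = 0.605). Without cKO replicate 1 it was 0.25 and just past the threshold (edgeR adjusted p = 0.0497), and without cKO replicate 3 it was -0.03.

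The macroH2A genes, whose proteins carry a large non-histone domain and are enriched on the inactive X chromosome, differed little between libraries, and H2afy had the smallest spread of the 10 members. H2afy (chr13:56073619-56136361, minus strand) had 100.6, 105.7 and 107.3 CPM in cKO and 106.1, 101.2 and 99.0 CPM in WT. Its coefficient of variation was 3.32% in cKO and 3.57% in WT, and 10.2% of all genes kept had a lower average. The log2 fold change of H2afy was 0.03 (SE 0.05, 95% interval -0.09 to 0.15, edgeR adjusted p = 0.773), and 0.06 without cKO replicate 1. H2afy2 (chr10:61738665-61784147, minus strand) had 82.7, 87.1 and 92.4 CPM in cKO and 99.0, 89.1 and 93.9 CPM in WT, with overlapping groups. Its log2 fold change was -0.10 (SE 0.06, 95% interval -0.24 to 0.03, edgeR adjusted p = 0.356), and -0.07 without cKO replicate 1.

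The small opposite differences of the macroH2A genes added up in their ratio. The log2 ratio of H2afy to H2afy2 counts per kilobase was -1.36, -1.37 and -1.43 in cKO and -1.55, -1.46 and -1.57 in WT. The groups did not overlap in this ratio, and the difference of means was 0.14, cKO minus WT. It ran from 0.12 to 0.17 with single libraries left out. The negative values rest on the exon length of 6809 bases for H2afy. Per kilobase of the principal transcript H2afy was above H2afy2, with means of 51.1 and 40.2 CPM per kb in cKO and 49.9 and 43.2 in WT. The difference of means, cKO minus WT, was 0.14 with either length. This ratio was added after the other pairs were chosen and was not tested. For single genes, groups that do not overlap made up 28.2% of all genes kept, and no such share was computed for ratios.

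Neither linker histone gene differed beyond the spread between libraries. H1f0 (chr15:79028450-79030504, plus strand, 1 exon), whose protein H1.0 is known to accumulate in cells that stop dividing, had 495.6, 517.2 and 545.1 CPM in cKO and 551.1, 493.5 and 494.3 CPM in WT. The ranges overlapped almost fully, and the log2 fold change of H1f0 was 0.02 (SE 0.06, 95% interval -0.11 to 0.14, edgeR adjusted p = 0.897), and 0.05 without cKO replicate 1. H1fx (chr6:87980421-87981637, minus strand, 1 exon), which encodes the linker histone H1.10, had 24.0, 30.2 and 33.3 CPM in cKO and 29.0, 31.1 and 31.2 CPM in WT. Its log2 fold change was -0.06 (SE 0.10, 95% interval -0.28 to 0.17, edgeR adjusted p = 0.808), and 0.06 without cKO replicate 1.

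Replicate 1 of cKO was the lowest cKO library for 9 of 10 members, the exception being H3f3b. Among all genes kept it was the lowest cKO library for 39.7%, and for 51.1% of the 10290 genes that averaged 10 CPM or more. Its level over the mean of the other cKO libraries was 0.73 for H3f3a, 0.74 for H2afz, 0.75 for H2afx and 0.76 for H1fx, 0.88 for H2afv, and between 0.90 and 0.98 for the remaining 5. Without it, edgeR called 3 of 10 members (H2afj, H3f3b and H2afx, all higher in cKO), beside 8.09% of all genes called higher and 16.4% called in either direction. Leaving out any other single library gave 0 of 10.

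**Figure D3:**
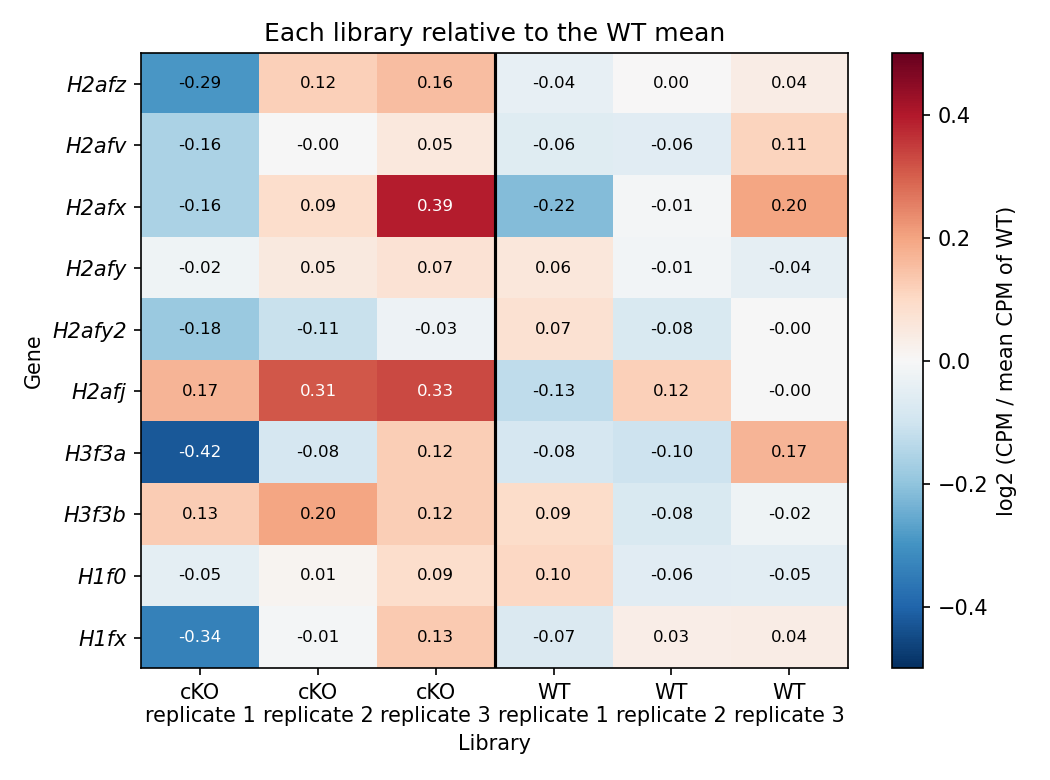
Log2 of each library's CPM over the WT mean, for the 10 genes (rows) in 3 cKO and 3 WT libraries (columns). H3f3a (-0.42), H1fx (-0.34) and H2afz (-0.29) are lowest in cKO replicate 1, and H2afj and H3f3b are above the WT mean in all 3 cKO libraries.

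Genes that deposit, exchange or modify the variants were described in 3 lists. Among 10 genes of H3.3 deposition 1 was called lower and 0 higher, where 4.94% of all genes were called lower and 3.40% higher, and the median of the list's log2 fold changes was -0.0066. The gene that fell was Nasp, a chaperone of histones H3 and H4 and of linker histones, with 591.3 ± 12.7 CPM in cKO and 663.0 ± 8.5 CPM in WT (SD, n = 3 each; log2 fold change -0.17, edgeR adjusted p = 0.0382). For H2A.Z exchange the counts were likewise 1 lower and 0 higher of 10, and the list median was 0.0096. This was Yeats4, a subunit of the H2A.Z loading and acetylating complexes, with 48.3 ± 1.9 CPM in cKO and 56.4 ± 1.6 CPM in WT (SD, n = 3 each; log2 fold change -0.22, edgeR adjusted p = 0.0452). Both calls were lost when any library other than cKO replicate 1 was left out (edgeR adjusted p between 0.0777 and 0.177 for Nasp and between 0.0631 and 0.181 for Yeats4), and without a filter on low counts (0.0577 for Nasp and 0.0721 for Yeats4). Without cKO replicate 1, 3 of 10 H3.3 deposition genes were called lower, beside 8.26% of all genes: Nasp (edgeR adjusted p = 0.0070), Dek (0.0430) and Asf1b (0.0452). In the H2A.Z exchange list the count without it was again 1 lower, Yeats4 (0.0339).

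Of 11 genes of H2AX signalling, 0 passed the edgeR test, with a median of -0.07. The lowest p-values were those of Ppm1d, a phosphatase that removes the mark from H2AX (log2 fold change -0.24, edgeR adjusted p = 0.0549), and Atm, a kinase that places it (-0.17, edgeR adjusted p = 0.0930). With cKO replicate 1 left out, the edgeR adjusted p was 0.0376 for Ppm1d and 0.0316 for Atm.

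Of 15 other variant and testis histone genes only 5 had enough counts to be tested. The 10 not tested included the spermatid linker histone genes Hils1 and H1fnt and the H2afb genes, none with a group mean above 0.143 CPM. Of the 5 tested, 1 was called lower and 0 higher (list median -0.14), where 4.94% of all genes were called lower and 3.40% higher. The gene that fell was Hist1h2aa, a testis H2A gene, with 26.6 ± 2.2 CPM in cKO and 33.5 ± 1.0 CPM in WT (SD, n = 3 each; log2 fold change -0.34, edgeR adjusted p = 0.0218). The centromere variant gene Cenpa had 39.7 CPM in cKO and 43.9 CPM in WT on average and did not pass (edgeR adjusted p = 0.362).

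The clustered histone genes, taken by symbol, were set beside the variants for their replication-dependent counterparts. Some of the testis histone genes of the list above are among them, so that the call of Hist1h2aa is counted in both lists. Of 63 tested, 4 were called lower and 0 higher (list median -0.11), where 4.94% of all genes were called lower and 3.40% higher. The median and the calls depended on single cKO libraries. Without cKO replicate 3 the median was -0.29, with 9 called lower and 0 higher. Over all genes that fit gave 1475 calls in either direction, against 1681 with all 6 libraries. Its share of all genes called lower is not given here, so the 9 cannot be set against it. Without cKO replicate 1 the median was 0.08, and 9 of 63 were called higher and 7 lower, where 8.09% of all genes were called higher and 8.26% lower. Among the 9 called higher without cKO replicate 1, Hist1h4h and Hist2h2ac had the lowest p-values. Hist1h4h had 84.1, 133.3 and 158.4 CPM in cKO and 98.1, 101.6 and 98.9 CPM in WT. Hist2h2ac had 66.8, 110.8 and 112.1 CPM in cKO and 72.1, 83.4 and 75.9 CPM in WT. Both had cKO replicate 1 below every WT library and the other cKO libraries above every WT library, and neither passed with all 6 libraries (edgeR adjusted p = 0.237 for Hist1h4h and 0.213 for Hist2h2ac). Those that fell with all 6 libraries were Hist1h2bj (log2 fold change -0.78, edgeR adjusted p = 0.0047), Hist1h2ae (-0.67, 0.0442), Hist1h2aa and Hist1h1a, the gene of linker histone H1.1 (-0.23, 0.0196). Hist1h2bj had 12.2, 16.5 and 19.5 CPM in cKO and 26.4, 26.2 and 30.7 CPM in WT, and its call was kept with each single library left out. The calls of Hist1h1a and Hist1h2ae did not hold when WT replicate 1, WT replicate 2 or cKO replicate 2 was removed (edgeR adjusted p of 0.0871 to 0.101 for Hist1h1a and of 0.117 to 0.210 for Hist1h2ae). Hist1h2aa was not past the threshold once a WT library or cKO replicate 2 was removed (0.0705 to 0.120), and Hist1h2ae also in DESeq2 (0.126), limma-voom (0.0533) and the robust fit (0.196). Hist2h3c2, which did not pass (edgeR adjusted p = 0.0634), had 0.99, 1.81 and 0.69 CPM in cKO and 1.52, 38.4 and 1.81 CPM in WT, so that its fold change rests on WT replicate 2. Near-identical copies within the clusters and the lack of a poly(A) tail make the counts of single genes there uncertain. Of 10 genes that process or degrade the clustered transcripts 0 passed the edgeR test, with a median of -0.09, and the lowest p-values were those of Eri1, the exonuclease that trims the stem-loop end (-0.20, edgeR adjusted p = 0.0586, and 0.0110 without cKO replicate 1), and Npat, the activator of the histone clusters (-0.14, edgeR adjusted p = 0.126).

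**Figure D4:**
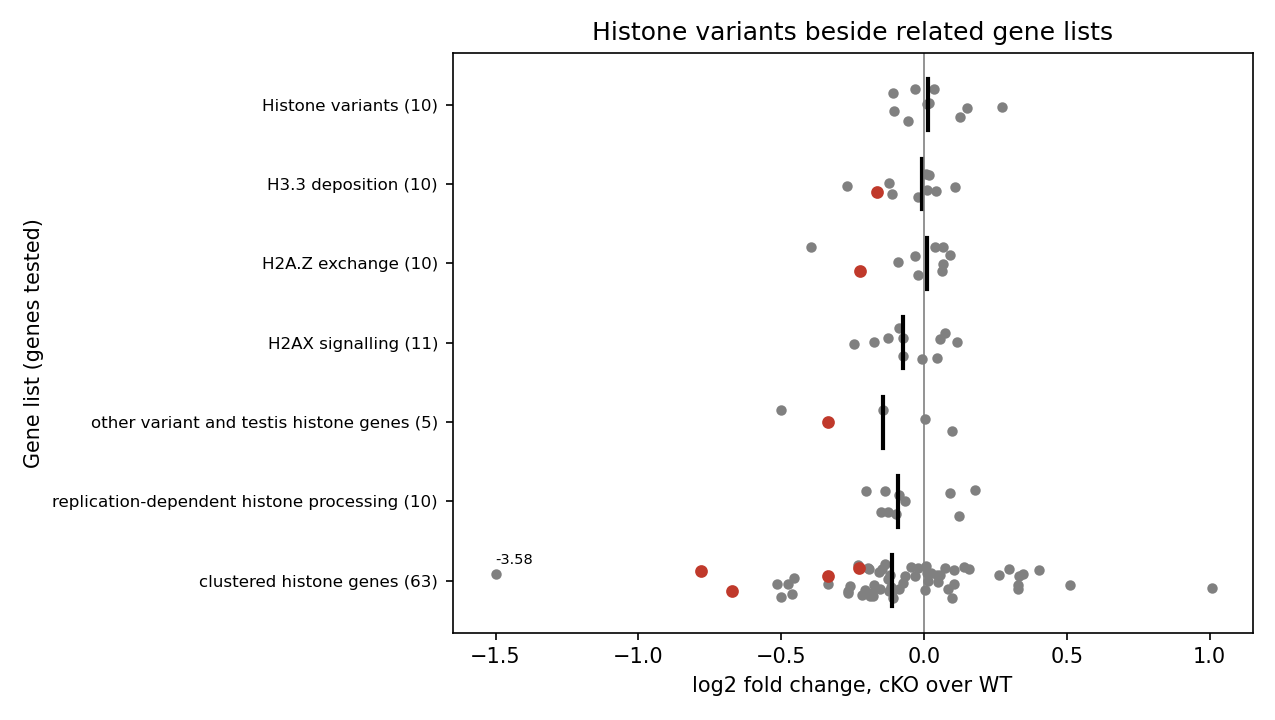
Log2 fold change, cKO over WT, of the variant genes and of 6 related gene lists (1 point per gene tested, red where past the threshold, black bar at the median). The variants hold no red point and a median of 0.01. The 63 clustered genes hold 4 red points below 0, where 4.94% of all genes were called lower. Their median is -0.11 (0.08 without cKO replicate 1 and -0.29 without cKO replicate 3). Of the clustered genes 1, Hist2h3c2 at -3.58, is drawn at the left edge with its value.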

How the data were processed

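Whole-testis RNA of 3 cKO and 3 WT samples was compared. Per the labels' protocols, libraries were primed with random and poly(T) primers, strand-selected and depleted of targeted transcripts, while the molecule field names polyA RNA. The deposited values are raw read counts per gene, made by the authors with featureCounts 1.6.4 on GENCODE M18 models, on the forward strand and without the options that count multi-mapping reads or pairs, per the file headers. The submitters' processing notes name cutadapt, HISAT2 and GRCm38.p5. The deposited Length column, another number in the table, gives exon bases per gene. Of 54232 genes, 54165 were named from GENCODE M21.

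After filterByExpr (at least 10 counts in enough libraries and 15 in total) 20153 genes remained. They were scaled by TMM and tested with the edgeR 4.0.16 quasi-likelihood test (R 4.3.3, group as the only term, two-sided), with Benjamini-Hochberg adjustment over all genes kept; called means an adjusted p under 0.05. CPM use TMM-scaled library sizes and 95% intervals come from the fit. DESeq2 1.42.0, limma-voom (limma 3.58.1), other scalings, filters, a replicate block and leaving out each library were alternatives. The procedure was tested on simulated data, where 52% of genes given a log2 change of 0.5 and 80% of those given 1 were called. Of the calls there, 7.3% fell on genes given no change, and changes smaller than 0.5 were not simulated. Transcript windows and coding sequences come from GENCODE M21 (GRCm38). Named genes are the members and, per related list, all called genes if 6 or fewer, or else the 4 with the lowest p, and the 2 with the lowest p where none was called; for likeness, the 3 protein-coding genes averaging 1 CPM or more that had the highest Pearson r to the member with the lowest p. Hist2h3c2, Hist1h4h, Hist2h2ac, Dek, Asf1b, Cenpa, Hils1 and H1fnt were named after their values were seen. The members and lists were chosen with earlier results of these data known. Python 3.11.15, pandas 2.3.3, numpy 2.4.6 and matplotlib 3.10.9 were used.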

Additional observations from a re-analysis of the deposited data

How the results depend on the processing

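The count of members past the threshold was 1 of 10, H2afj each time, without a filter on low counts, with at least 1 CPM in 3 samples, in DESeq2, in limma-voom, in the robust fit and with the replicate block, and it ran from 0 to 3 with single libraries left out. Over all genes it ran from 623 to 3375 with single libraries left out. The genes past the threshold over the 6 related lists numbered 6, against 15 with no filter and 10 with the replicate block, and 1 to 23 with single libraries left out. Of the clustered genes among them, 5 were called higher and 9 lower with no filter, and 1 higher and 6 lower with the replicate block. Calls over all genes, in either direction, numbered 1970 with no filter and 1798 with the replicate block, against 1681 in the main fit. The shares of all genes called higher and called lower in those fits are not given here. The clustered counts therefore cannot be set against them. Over all genes kept, same-numbered cKO and WT libraries had correlations of deviations from group means of 0.03, 0.01 and 0.07. Such values over all genes do not settle whether the libraries were paired. H2afz, H2afv, H2afx and H1fx were lowest in replicate 1 and highest in replicate 3 of both groups, and the other members were not. With the replicate block the unadjusted edgeR p of H2afx was 0.034 (adjusted p = 0.167), against 0.328 without it. Of 140 refitted values of the members, 14 changed sign, 11 of them with a library left out, none of them past the threshold. H2afz was -0.0099 with library size alone as the scaling and -0.0024 with the replicate block, and H1f0 was -0.0018 with library size alone. With single libraries left out, the log2 fold changes ran from -0.072 to 0.136 for H2afz, from -0.080 to 0.027 for H2afv, from -0.033 to 0.247 for H2afx, from -0.243 to 0.022 for H3f3a, from -0.022 to 0.072 for H1f0 and from -0.165 to 0.059 for H1fx. H2afj, H3f3b, H2afy and H2afy2 kept their direction in all alternatives run. The causes were not tested. The precision is set by the spread of 3 libraries a group, with totals of 26126694 to 43265614 counts.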
